A study of Danio rerio with 14 samples.

Results

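Zebrafish intestine of the line Tg(Xla.Eef1a1:Cau.Asip1)iim04, whose name denotes goldfish agouti signalling protein 1 under a Xenopus laevis elongation factor promoter, was compared with intestine of wild-type Tubingen fish by poly(A)-selected, strand-marked RNA sequencing. The comparison covers the 7 libraries whose titles end in H, of 14 in all: transgenic H replicates 13, 14 and 16, and wild-type H replicates 5, 6, 7 and 8. The other 7, whose titles end in M, are transgenic M replicates 9, 10 and 11 and wild-type M replicates 1, 2, 3 and 4, and served here to look up genes in libraries that the H comparison had not used. The labels explain neither letter and give no sex, age, feeding state or number of fish per library, so p-values measure the spread between these libraries, which may be technical. The line name is the sole stated genotype difference, so the transgene and the genetic background of the line cannot be told apart. The goldfish transgene had no row in the count table, and the transgene itself was therefore not checked.

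Agouti proteins are secreted and block melanocortin receptors. In fish skin agouti sets the pale belly, and a related protein in the brain drives feeding. Vitellogenins are yolk precursors that the liver of egg-laying females makes in response to oestrogen and releases into the blood, from which growing oocytes take them up. Egg coat proteins of the zona pellucida family and oocyte regulators such as buc, which organises the Balbiani body, are made in the ovary in zebrafish. None of these is a defining product of the intestinal epithelium, which is marked by brush border enzymes and nutrient carriers.

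Totals were 10064013 to 14091791 counts in the 7 H libraries and 9847910 to 13727372 in the M libraries. Sets of transcripts from outside the gut epithelium differed greatly between the H libraries. In transgenic replicates 13, 14 and 16 of the H set, 18.2%, 7.95% and 21.0% of all counts came from vitellogenin genes, and in wild-type replicate 8 6.18% did. Wild-type replicates 5, 6 and 7 gave 9.65e-05%, 0.00201% and 0.000547%. The 3 transgenic libraries and 1 wild-type library thus held yolk precursor transcripts in bulk and the other 3 wild-type libraries held almost none. The transgenic libraries averaged 15.7% ± 6.89 (SD, n = 3) and the wild-type libraries 1.55% ± 3.09 (SD, n = 4). The exact two-sided permutation test over libraries gave p = 0.0571 (adjusted over 14 lists, 0.2), which is the smallest p that 3 libraries against 4 can give with this test, so no share could pass 0.05. The shares of follicle and steroid synthesis, enteric neuron, and macrophage and neutrophil genes gave the same p, each lower in transgenic libraries.

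Egg transcripts followed another order. The 20 egg coat genes took 2.44% of counts in wild-type H replicate 6, 0.448% in replicate 7, 0.106% in replicate 8 and 0.000792% in replicate 5. They took 0.0415% in transgenic H replicate 13, 0.000356% in replicate 14 and 9.23e-05% in replicate 16. The 40 oocyte and germline regulators took 1.65%, 0.3004%, 0.0809% and 0.0118% in wild-type replicates 6, 7, 8 and 5, and 0.0358%, 0.00265% and 0.00564% in transgenic replicates 13, 14 and 16. Both lists were therefore high in wild-type replicates 6 and 7, lower in wild-type replicate 8 and transgenic replicate 13, and near 0 in the other libraries, so the genotypes overlapped (exact permutation p = 0.114 for each list, n = 3 and 4). Yolk and egg transcripts did not rise together: wild-type replicates 6 and 7 were highest in egg coat and near 0 in yolk precursors. In bulk tissue, more cells of a type and more RNA per cell cannot be told apart.

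**Figure D1:**
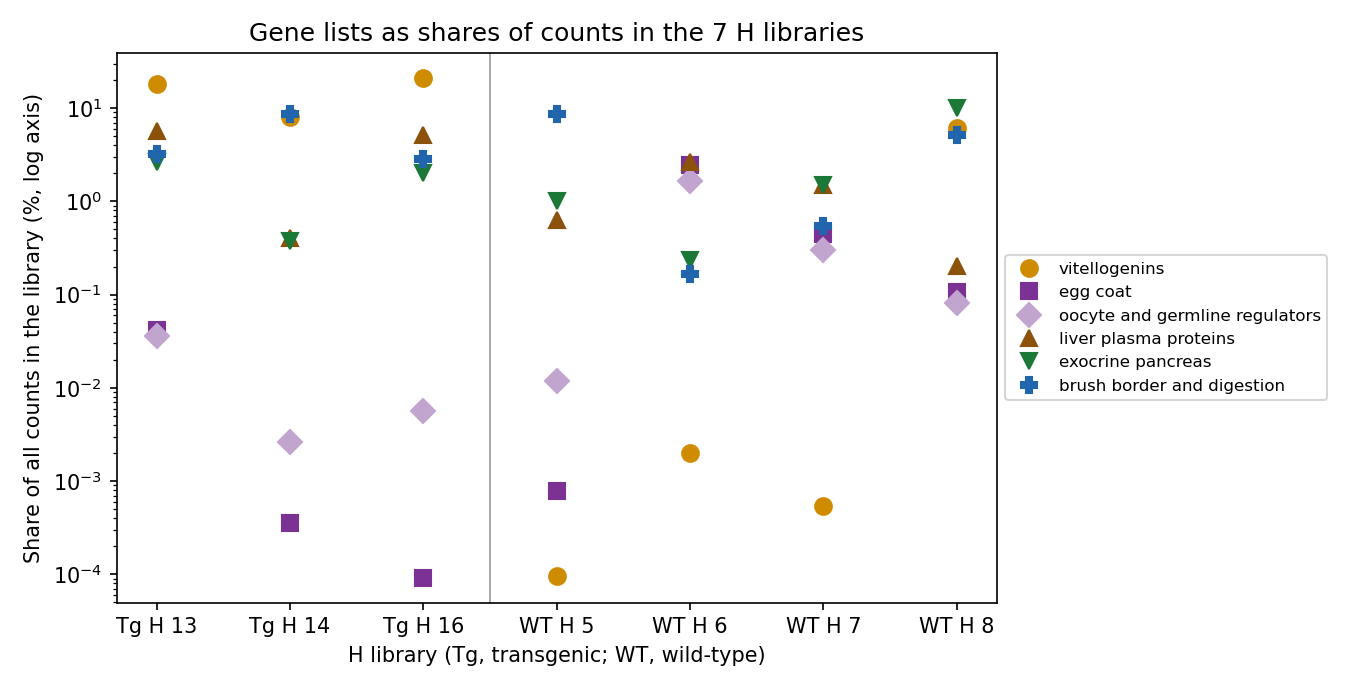
Share of all counts in each H library (log axis, percent) taken by 6 gene lists; each point is 1 library and the vertical line separates transgenic from wild-type. Vitellogenins stand at 6.18% to 21.0% in the transgenic libraries and wild-type replicate 8, whereas egg coat and oocyte genes are highest in wild-type replicate 6.

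Within the yolk precursors, vtg1 was the most abundant. On the FPKM scale, which divides by gene length, vtg1 reached 31744, 12494 and 38127 in the transgenic libraries (replicates 13, 14 and 16) and 8092 in wild-type replicate 8. The remaining wild-type libraries, replicates 5, 6 and 7, had 0.0210, 2.36 and 0.259. The make-up also differed: vtg6 and vtg7 together made 10.3% of vitellogenin FPKM in wild-type replicate 8 and 0.252%, 2.08% and 0.227% in transgenic replicates 13, 14 and 16. The genotype fit gave vtg1 a log2 fold change of 4.04 ± 3.62 (SE) with an adjusted p of 0.626. All 8 vitellogenins were tested, 0 were called by edgeR and 0 had an unadjusted p under 0.05, while 4 lay wholly higher in transgenic libraries, as 8.54% of all genes did. limma-voom called 0, and DESeq2 gave no adjusted p for 5 of the 8 and called 0 of the others. Wild-type replicate 8 set the sign of vtg6 and vtg7, whose log2 fold changes were -0.92 and -0.29 with 7 libraries and 13.5 and 10.99 without that library, and no vitellogenin was called without it either. Vitellogenin genes are close copies, so reads could be split among them. In the M libraries the highest count of any vitellogenin in any library was 91.

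Among egg coat genes, zp3b had 30061 counts in wild-type replicate 6, 5055 in replicate 7, 1731 in replicate 8 and 8 in replicate 5. Its counts in transgenic replicates 13, 14 and 16 were 579, 9 and 6. All 19 tested egg coat genes had negative log2 fold changes, from -4.21 for zp2l2 to -7.99 for zp2.6, and 0 were called by edgeR, with 4 at an unadjusted p under 0.05. DESeq2 called 4 of them lower and limma-voom 0. Egg coat genes rose in the same wild-type libraries, so the 19 shared signs are not 19 separate results. The egg coat median was -5.10 with 7 libraries and -1.62 without wild-type replicates 6 and 7. Of all genes tested, 9.88% had an unadjusted p under 0.05, and DESeq2 called 3.87% and limma-voom 3.54%. The Balbiani body gene buc had 21301 counts in wild-type replicate 6, 3207 in replicate 7, 1109 in replicate 8 and 7 in replicate 5, against 479, 2 and 5 in the transgenic libraries. The germline helicase DDX4 had 2032, 228, 109 and 3 counts in wild-type replicates 6, 7, 8 and 5 and 76, 0 and 0 in the transgenic libraries. Genes of the follicle cells that surround oocytes, and of steroid synthesis, were detected unevenly. Of the 23 genes on that list, 8 passed the filter. FSHR and CYP19A1 were at 0 in each H library, and gsdf had 27 counts in wild-type replicate 6. CYP11A1 (ENSDARG00000002347), which starts steroid synthesis, had 3024, 455, 158 and 5 counts in wild-type replicates 6, 7, 8 and 5 and 73, 0 and 1 in the transgenic libraries. CYP17A1 had 1907 counts in wild-type replicate 6, 280 in replicate 7 and 73 in replicate 8. Both were thus highest in the libraries with the most egg coat transcripts. So was hsd3b2, with 813 and 112 counts in wild-type replicates 6 and 7. A second CYP11A1 entry was at 0 in each H library. The remaining tested members of the list were not highest in wild-type replicate 6. The inhibin subunit gene INHBA (ENSDARG00000012671) was highest in wild-type replicate 7, at 433 counts, and had 12 to 64 counts in the other 6 libraries. INHBA (ENSDARG00000024759), INHBB (ENSDARG00000040777) and WT1 also peaked in wild-type replicate 7, at 109, 259 and 136 counts. In replicate 6 they had 2, 34 and 17. STAR had 3 to 16 counts in each H library.

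A wider set was defined from the data. It holds the 500 genes below 0.5 CPM (counts scaled to library size) in each M library and at 5 CPM or more in some H library, a rule applied after seeing the data. Wild-type H replicate 6 had the highest share of counts for 479 of the 500. They took 19.05% of its counts, 2.94% in wild-type replicate 7, 1.91% in wild-type replicate 8 and 0.00740% in wild-type replicate 5. The transgenic libraries gave 0.816%, 0.547% and 0.578%. The set includes 42 genes of the egg coat and oocyte lists and the vitellogenins vtg3, vtg4, vtg6 and vtg7, and 454 genes are on neither list. The 4 vitellogenins made 0.518%, 0.499% and 0.537% of counts in transgenic replicates 13, 14 and 16 and 1.201% in wild-type replicate 8, and thus most of what the set took there. The 454 took 15.8% in wild-type replicate 6 and 2.36% in replicate 7, and 0.00619% to 0.572% in the other 5. Of the 500, 198 have no symbol or a clone-type one.

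Other tissues also differed between libraries. Liver plasma proteins took 5.68% and 5.11% of counts in transgenic replicates 13 and 16 but 0.401% in transgenic replicate 14, and 0.638%, 2.61%, 1.5004% and 0.202% in wild-type replicates 5 to 8. Exocrine pancreas genes took 10.03% in wild-type replicate 8 and 0.234% to 2.63% in the other 6. Brush border and digestion genes, which define the labelled tissue, took 8.70% in transgenic replicate 14 and 8.67% in wild-type replicate 5, but 0.167% and 0.545% in wild-type replicates 6 and 7. The libraries with the most egg transcripts thus had the least enterocyte transcript. The groups overlapped for liver, pancreas and brush border.

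Against this spread, the genotype comparison called few genes. With all 7 libraries, edgeR called 11 of 17523 genes (0.0628%) at an adjusted p under 0.05, 9 higher and 2 lower in transgenic fish, while 9.88% had an unadjusted p under 0.05. The transgenic libraries lay wholly above the wild-type ones for 8.54% of genes and wholly below for 5.07%. A positive log2 fold change means higher in transgenic. The biological coefficient of variation was 72.8% in H and 36.3% in M. The 11 called genes were close to on or off between the genotypes, and in none of the 11 did the genotypes overlap.

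ACADSB (ENSDARG00000098174), annotated by the name of a mitochondrial enzyme that oxidises branched-chain acyl-CoA, stood at 20.8, 28.0 and 19.6 CPM in transgenic replicates 13, 14 and 16. It stood at 0.208, 0.241, 0.247 and 0.150 CPM in wild-type replicates 5 to 8. The means were 22.8 ± 4.58 CPM (SD, n = 3) and 0.211 ± 0.0446 CPM (SD, n = 4), and the log2 fold change was 6.68 ± 0.44 (SE, adjusted p = 0.00444). The transcript ENSDARG00000099511 moved the other way, with 0.0935, 0.208 and 0.170 CPM in the transgenic libraries and 37.6, 30.2, 28.5 and 29.7 CPM in the wild-type ones, giving a log2 fold change of -7.56 ± 0.49 (SE) and an adjusted p of 0.00444. sc:d217 had 0 counts in each transgenic H library and 33.9, 27.5, 27.5 and 25.9 CPM in wild-type replicates 5 to 8. Taking 3 counts over the transgenic group as the floor, sc:d217 was at least 307-fold lower (adjusted p = 0.0201). zgc:174862 had 42.3, 61.5 and 37.8 CPM in the transgenic libraries and a single count, in replicate 8, in the wild-type ones (adjusted p = 0.00866).

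2 called genes have names from mitochondrial biology and low levels. ndufa9b, a copy of an accessory subunit gene of respiratory complex I, stood at 2.80, 3.23 and 2.72 CPM in transgenic and 0.0618 to 0.104 CPM in wild-type libraries, a log2 fold change of 5.04 ± 0.53 (SE) with an adjusted p of 0.0437. taco1, whose product aids translation of a mitochondrial cytochrome oxidase subunit, stood at 3.65, 2.502 and 4.77 CPM against 0.104 to 0.161 CPM, a log2 fold change of 4.65 ± 0.54 (SE) with an adjusted p of 0.04999. The remaining 5 carry clone-type names or none. si:dkey-253d23.4 had 53.9, 56.0 and 51.9 CPM in transgenic libraries and at most 0.519 CPM in wild-type ones, and its neighbour by name si:dkey-253d23.3 had 14.6, 18.6 and 13.3 CPM against at most 0.525 CPM. si:ch211-59h6.1 had 32.4, 33.1 and 34.5 CPM against at most 0.247 CPM. ENSDARG00000099364 and ENSDARG00000071629 had 0 counts in each wild-type H library and were at least 377-fold and 339-fold higher in transgenic ones, against a floor of 3 counts over the wild-type group.

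**Figure D2:**
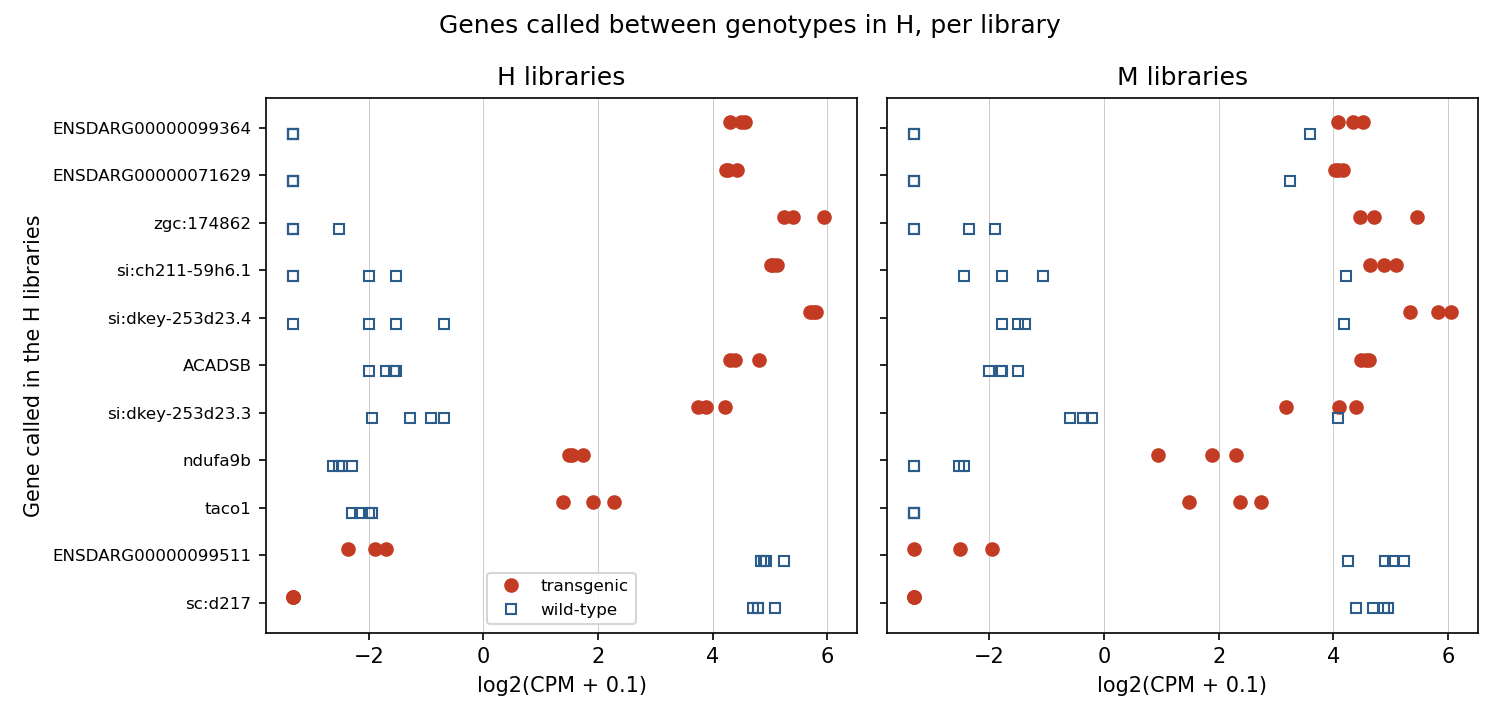
Level of the 11 genes called in H, as log2(CPM + 0.1), in each H library (left) and each M library (right); filled circles are transgenic and open squares wild-type libraries. In H the genotypes do not overlap for any of the 11, and in M 1 wild-type library lies well above the other wild-type ones for 5 of them.

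The M libraries, which share no library with H, showed the same direction for each of the 11 genes. In M, edgeR called 742 of 17177 genes (4.32%), 378 higher and 364 lower. Of the 11 H calls, 6 were also called in M (54.5% of the H calls and 0.809% of the M calls) and 0 were called in the opposite direction. The 6 were ACADSB, zgc:174862, ndufa9b, taco1, sc:d217 and ENSDARG00000099511. In M, ACADSB stood at 23.6, 22.2 and 24.5 CPM in transgenic libraries and 0.148 to 0.253 CPM in wild-type ones. sc:d217 had 0 CPM in the 3 transgenic M libraries and 20.9 to 31.0 CPM in the 4 wild-type ones.

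The 5 H calls that were not called in M shared a pattern there. si:dkey-253d23.4 stood at 56.5, 66.0 and 40.1 CPM in transgenic M libraries, at 18.0 CPM in wild-type M replicate 1 and at 0.191 to 0.283 CPM in the other 3 wild-type M libraries. si:dkey-253d23.3 stood at 16.9 CPM in wild-type M replicate 1 and 0.567 to 0.765 CPM in the other 3. si:ch211-59h6.1 stood at 18.6 CPM, ENSDARG00000099364 at 11.9 CPM and ENSDARG00000071629 at 9.39 CPM in wild-type M replicate 1. The last pair had 0 CPM in the other 3 wild-type M libraries. In these 5 genes, 1 wild-type library thus stood well above the other 3. For si:dkey-253d23.3 it lay within the transgenic M range of 8.98 to 21.0 CPM. For the others it lay below each transgenic M library. The lowest transgenic M values were 24.8 CPM for si:ch211-59h6.1, 16.7 for ENSDARG00000099364 and 16.3 for ENSDARG00000071629.

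Genes called in M mostly kept their sign in H. Of 695 that were tested in H, 618 (88.9%) had the same direction there, against 58.9% of the 16681 genes tested in both. Those higher in M had a median H log2 fold change of 1.54 and those lower a median of -1.25. In H, 312 of the 695 did not overlap between genotypes in the same direction. Of all 17523 genes tested in H, 8.54% lay wholly higher and 5.07% wholly lower in transgenic libraries. The difference between the H and M effects was tested as an interaction in 1 fit of 14 libraries. edgeR called 0 of 18619 genes, with 6.9% at an unadjusted p under 0.05 and a smallest adjusted p of 0.101.

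**Figure D3:**
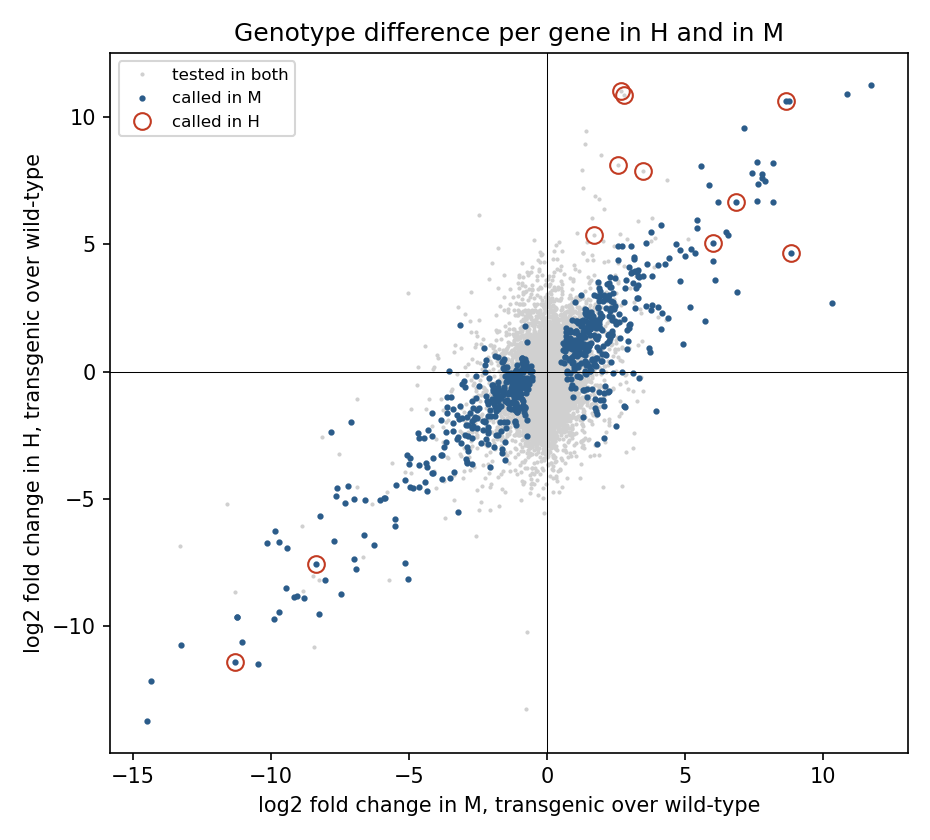
Log2 fold change of transgenic over wild-type in M (horizontal) and in H (vertical) for genes tested in both; blue points were called in M and red circles in H. The 11 H calls lie in the same-sign quadrants, and 88.9% of the M calls tested in H have the same sign there.

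None of the 11 called genes is a yolk, egg coat, oocyte or follicle list member, and none is in the 500-gene set. Vitellogenin, egg coat, oocyte and 500-set genes made up 1.89% of all genes tested, so 0 of 11 is near that share. It was not read as a result about yolk or egg content. Removing the vitellogenins before scaling left 8 calls, all among the 11, and removing vitellogenin, egg coat and oocyte genes also left 8, all among the 11. Such removal alters only the scaling, the shared estimate of spread and the adjustment for the other genes. It cannot take out differences in tissue content between libraries. With the mean log2 CPM of egg coat and oocyte genes as a covariate, 8 genes were called, of which 5 were among the 11. With the vitellogenin mean as a covariate 0 genes were called, with 423 at an unadjusted p under 0.05, and with both means 0 were called, with 640. The vitellogenin mean nearly follows genotype, with wild-type replicate 8 as the exception, so genotype and yolk content can hardly be told apart in such a fit. Each of the 11 kept its direction in each of the 19 alternative fits, with a log2 fold change of at least 4.43 in size. Because the genotypes did not overlap in any of the 11, refits that use these libraries could hardly reverse a direction. The kept direction is therefore no test of yolk or egg content. Single genes of the 11 were called in 5 (taco1) to 14 (ACADSB and ENSDARG00000099511) of the 19 fits.

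Of the 200 genes with the lowest log2 fold changes in H, 16 (8%) were on the egg coat and oocyte lists, against 0.302% of all genes tested, and 0 were vitellogenins. Of the 200 highest, 0 were on the egg coat and oocyte lists and 2 were vitellogenins. Without wild-type replicates 6 and 7, the lowest 200 held 4 (2%) of the egg coat and oocyte lists, against 0.296% of genes tested. Egg genes could pass the low-count filter through wild-type libraries where they were high. For example, zp2.6 had 22, 0 and 0 counts in transgenic libraries and 1, 7540, 1385 and 243 in wild-type replicates 5 to 8. Egg genes also rose in the same libraries, so these counts describe the fold list and do not test a genotype effect. The 500-gene set was chosen by its levels in H, so its place among these folds was not read as a result. The egg coat and oocyte mean was itself a called term for 421 genes (2.4%) and the vitellogenin mean for 0. Genes that make up each mean were among those tested, so part of the 421 can follow from how the mean was built.

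**Figure D4:**
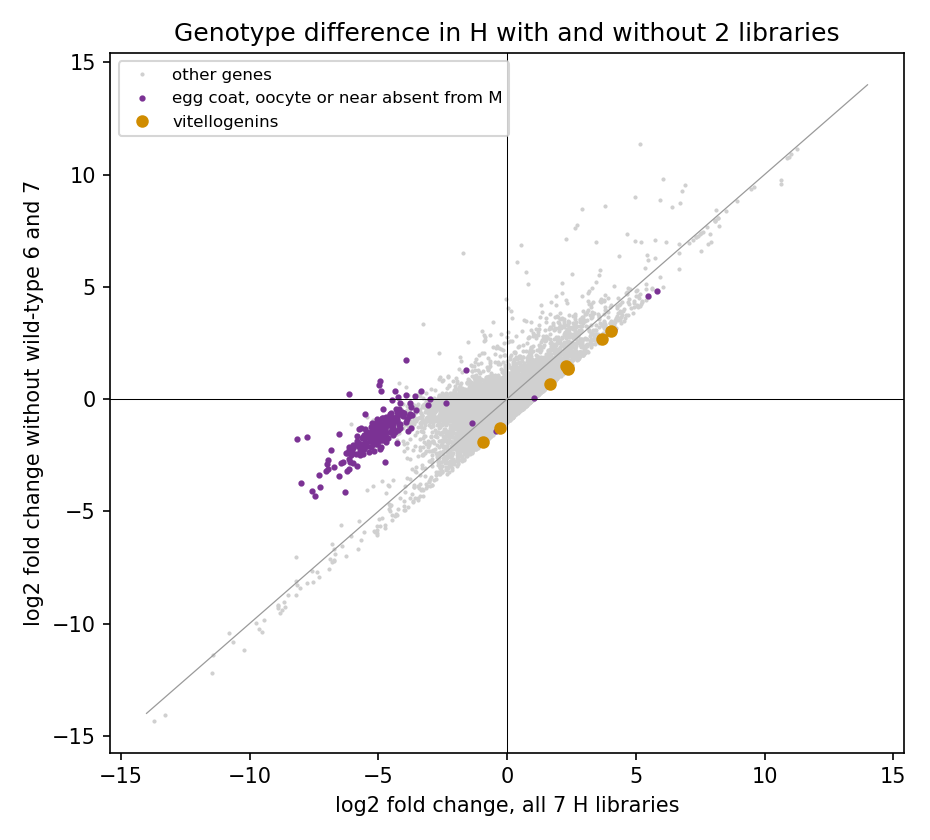
Log2 fold change per gene in H with all 7 libraries (horizontal) and without wild-type replicates 6 and 7 (vertical); the diagonal marks equal values. Egg coat, oocyte and 500-set genes (purple) lie to the left. The 500-gene set, which was chosen by its H levels, had a median of -5.05 over 314 members tested with all 7 libraries. Without wild-type replicates 6 and 7 its median was -1.53 over 233 tested members, so the medians are not over the same genes. The vitellogenins (orange) move from a median of 2.33 to 1.36.

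Leaving out wild-type replicates 6 and 7 raised the calls to 79 of 17580 (0.449%), 47 higher and 32 lower, and lowered the biological coefficient of variation to 47.3%. These libraries were left out because earlier results of these data had shown their egg transcripts. Of the 79, 9 were among the 11, and 49 of the 79 were called in M (62% of these calls and 6.6% of the M calls), with 0 in the opposite direction. The tripartite-motif gene ftr80, of a large fish family, had 17.9, 26.4 and 17.1 CPM in transgenic libraries and 0 in each wild-type one (adjusted p = 0.0591 with 7 libraries and 0.0246 with 5). The potassium channel gene KCNJ13, which in zebrafish shapes skin stripes, had 11.12, 23.03 and 17.03 CPM in transgenic libraries and 0.0804 to 0.927 CPM in wild-type ones (adjusted p = 0.0937 and 0.026). The secreted protein gene cbln7 had 38.5, 45.8 and 57.8 CPM against at most 0.803 CPM (adjusted p = 0.0782 and 0.0171). Of 107 drug metabolism genes tested with 5 libraries, 2 were called higher and 1 lower, and the list median was -0.08. The drug conjugation gene ugt2b5 had 19.9, 15.4 and 15.8 CPM against 0.0804 to 1.04 CPM, with adjusted p = 0.102 and 0.0171.

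Some calls of the 5-library fit rested on the libraries left out. The RNA-binding protein gene hnrnpa0a had 43.0, 41.9 and 39.25 CPM in transgenic libraries, at most 0.208 CPM in wild-type replicates 5, 6 and 8, and 24.7 CPM in wild-type replicate 7. Its adjusted p was 0.54 with 7 libraries and 0.00984 with 5. In M, hnrnpa0a was called higher too, with a log2 fold change of 10.3 (adjusted p = 0.000349). In the other direction, the class II antigen presentation genes mhc2dga and mhc2dgb had at most 0.104 CPM in transgenic libraries. mhc2dga had 177, 1.29, 21.9 and 213 CPM in wild-type replicates 5 to 8 (adjusted p = 0.295 and 0.0188). In M the log2 fold change of mhc2dga was -0.77 with an adjusted p of 0.878. Its M values ranged from 0 to 284 CPM in transgenic and from 0 to 542 CPM in wild-type libraries. ugt2a7 had 76.5, 4.34, 29.9 and 104 CPM in wild-type replicates 5 to 8 and 4.34 to 6.77 CPM in transgenic libraries (adjusted p = 0.412 and 0.0171). In M, ugt2a7 was called lower too, with a log2 fold change of -3.84 (adjusted p = 8.48e-05). These genes belong to families with close copies, so reads could be split among members.

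Gene lists were described by counts and medians beside those of all genes tested, whose median log2 fold change was -0.09. Of all genes, 9.88% had an unadjusted p under 0.05, and DESeq2 called 3.87% and limma-voom 3.54%. Class I molecules display peptides to T cells. Of 24 tested class I genes, 11 lay wholly higher in transgenic libraries, against 8.54% of all genes, and 0 wholly lower, with a median of 0.87. The median was 0.25 without wild-type replicates 6 and 7, with 18 of 24 positive, and 0.04 in M. 5 had an unadjusted p under 0.05, edgeR called 0, and DESeq2 and limma-voom each called 3 higher and 1 lower. mhc1zea stood at 80.1, 121 and 76.6 CPM in transgenic and 9.34 to 15.8 CPM in wild-type libraries (adjusted p = 0.0731), and mhc1zda at 121, 194 and 104 CPM against 1.37 to 14.3 CPM (adjusted p = 0.148). Both were called higher in M (adjusted p = 0.000219 and 5.08e-05). mhc1zba went the other way, with 71.0, 128 and 70.25 CPM in transgenic libraries and 2199, 75.3, 524 and 1501 CPM in wild-type replicates 5 to 8 (adjusted p = 0.458 in H and 5.08e-05 in M). Class I genes are known to differ between zebrafish haplotypes.

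Liver transcripts were high in transgenic replicates 13 and 16, while their share in transgenic replicate 14 lay within the wild-type range (exact permutation p = 0.229 for the share, n = 3 and 4). Of 39 tested liver plasma protein genes, 38 had a positive log2 fold change, and the median was 2.28. Wholly higher in transgenic libraries were 3, near the 8.54% of all genes that were. An unadjusted p under 0.05 was found for 22, against 9.88% of all genes. edgeR called 0, DESeq2 10 higher, with no adjusted p for 2, and limma-voom 17 higher. Over all 17523 genes, DESeq2 called 298 higher and limma-voom 379 higher. The protease inhibitor gene serpina1 stood at 1791, 139 and 1245 CPM in transgenic and 46.5 to 103 CPM in wild-type libraries (adjusted p = 0.228). Transgenic replicate 14 was the lowest of the 3, as it was for the acute-phase gene crp3, which stood at 677, 99.96 and 795 CPM against 6.05 to 28.5 CPM. In M the liver median was -0.63. The liver list moves with the liver share of counts in each library, and its part in these differences was not tested.

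Medians of several lists differed with and without wild-type replicates 6 and 7. The brush border median was 0.71 with 7 libraries and -0.22 with 5, with 29 and 10 of 33 members positive. edgeR called 0 of the 33, with 2 at an unadjusted p under 0.05, against 9.88% of all genes. DESeq2 called 1 lower and limma-voom 0, against 3.87% and 3.54% of all genes. The sugar carrier gene SLC2A2 stood at 256, 305 and 192 CPM in transgenic libraries and 129, 14.9, 27.6 and 96.1 CPM in wild-type replicates 5 to 8. Lipid absorption genes had a median of 1.22 with 7 libraries and 0.32 with 5. Other epithelial lists lay further from 0 without the pair: the lysosome-rich enterocyte median was -0.21 with 7 libraries and -0.67 with 5, and that of hormone-making enteroendocrine cells -0.32 and -0.77. Cytosolic ribosomal protein genes had 76 of 79 positive with 7 libraries and 3 of 79 with 5, with medians of 0.34 and -0.25. Cell cycle genes had a median of -1.66 with 7 libraries and 0.05 with 5: the mitotic kinase gene aurka stood at 256 CPM in wild-type replicate 6, 35.03 in replicate 7 and 1.46 to 14.8 CPM in the other 5. The egg share differed in the same libraries, and its part in these list values was not tested. With the egg coat and oocyte mean as a covariate, the cell cycle median was 0.65 and the brush border median -0.16. Wild-type replicates 6 and 7, highest in egg share, also had the lowest brush border shares, 0.167% and 0.545%. That fit therefore cannot tell egg content from low enterocyte transcript.

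**Figure D5:**
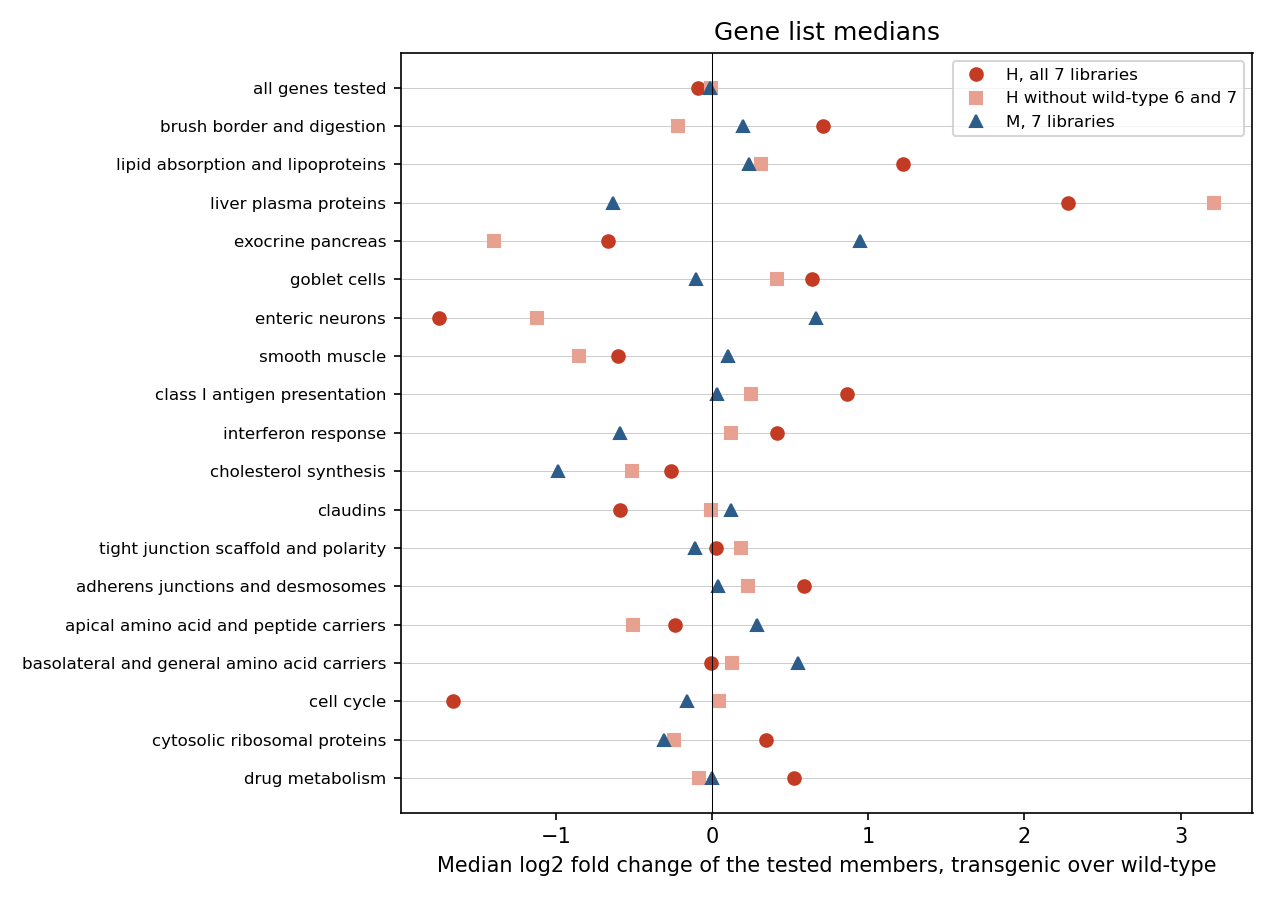
Median log2 fold change of the tested members of 18 gene lists and of all genes tested, in H with 7 libraries, in H without wild-type replicates 6 and 7, and in M. The cell cycle and brush border medians cross or reach 0 without those libraries, and the liver median stays high at 3.21.

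The study's title names intestinal integrity, permeability and amino acid transport. Of all genes tested in H, 9.88% had an unadjusted p under 0.05, and DESeq2 called 3.87% and limma-voom 3.54%. Of 23 tested claudin genes, which seal or open the paracellular path, edgeR called 0, with 1 at an unadjusted p under 0.05, and the median was -0.59 with 7 libraries and -0.01 with 5. DESeq2 called 1 lower and limma-voom 0. The claudin genes cldnd and cldng are on the oocyte list. They had 11762 and 11216 counts in wild-type replicate 6 and 2383 and 2065 in replicate 7, with log2 fold changes of -5.22 and -5.25. The claudin list took 0.244% of counts in wild-type replicate 6 and 0.127% in replicate 5. Wild-type replicate 6 had 10771787 counts in all, so cldnd and cldng made up most of the list's share there. In wild-type replicate 5 they had 3 and 4 counts. Their part in the list median was not tested. The pore-forming CLDN2 stood at 12.7, 2.19 and 11.3 CPM in transgenic and 0.830 to 2.90 CPM in wild-type libraries, so the groups overlapped (adjusted p = 0.464). Tight junction scaffold genes had a median of 0.03 over 37 members. edgeR called 0 of them, with 7 at an unadjusted p under 0.05. DESeq2 called 1 higher and 2 lower and limma-voom 2 higher. Adherens junction and desmosome genes had a median of 0.59 over 24 members with 7 libraries and 0.23 with 5. edgeR called 0 of them, with 4 at an unadjusted p under 0.05, DESeq2 called 2 lower and limma-voom 0. The adhesion gene epcam stood at 1386 CPM in wild-type replicate 6, 309 in replicate 7 and 10.3 to 78.2 CPM in the other 5 libraries.

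Apical amino acid and peptide carriers had a median of -0.23 over 18 members with 8 positive, and of -0.51 without wild-type replicates 6 and 7, with 4 of 19 positive. The median of basolateral and general carriers was -0.01 over 30 members with 14 positive, and 0.13 without that pair. edgeR called 0 in both, with 1 and 6 at an unadjusted p under 0.05, against 9.88% of all genes tested in H. DESeq2 called 1 lower among the apical carriers and 2 higher and 1 lower among the others, and limma-voom 0 and 1 higher. Of all genes tested in H, DESeq2 called 3.87% and limma-voom 3.54%. The cationic amino acid carrier gene slc7a2 stood at 116, 5.84 and 91.5 CPM in transgenic and 4.82 to 10.7 CPM in wild-type libraries (adjusted p = 0.313). It was high in the 2 transgenic libraries that were also high in liver transcripts. In M, 3 of 28 tested basolateral and general carriers and 1 of 17 tested apical carriers were called higher and 0 lower. Of all 17177 genes tested in M, 378 were called higher and 364 lower, 4.32% together. Of 10 tested agouti and melanocortin pathway genes edgeR called 0, with 1 at an unadjusted p under 0.05, and DESeq2 and limma-voom 0. The endogenous gene annotated ASIP had 12 counts over the 3 transgenic and 7 over the 4 wild-type H libraries, and MC3R and agrp had 0, so differences in these were not detectable at this depth.

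Other tools called more genes. DESeq2 called 678 of 17523 (3.87%), 298 higher and 380 lower, and 4 egg coat and 6 oocyte genes were among those lower. limma-voom with sample quality weights, which gives less weight to libraries that stand apart, called 620 (3.54%), 379 higher and 241 lower, with 0 vitellogenin, egg coat or oocyte genes. Of the 314 tested members of the 500-gene set, DESeq2 called 2 higher and 66 lower, and limma-voom 0 higher and 3 lower. That set was chosen by its H levels, so these counts describe the call lists and do not test a genotype effect. A fit of all 14 libraries, which shares 1 estimate of spread with M, called 214 of 18619 (1.15%). The 11 genes were called by DESeq2 and limma-voom, and 9 of them in the fit of 14.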

How the data were processed

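Trizol RNA of intestine was made into stranded poly(A) libraries, per the labels' protocols. The deposited table holds whole-number counts per Ensembl gene, not normalized by the authors. A second deposited table holds FPKM, which per gene kept a constant ratio to the authors' counts over the library total, as checked here, and was used for vitellogenin levels and shares. The submitters' processing notes name STAR 2.7.3a, featureCounts 1.6.3, FastQC and edgeR, and the builds GRCz11, GRCm38.p6 and mm10, with no roles. Whether reads were counted by strand is not stated in the sources used here, so antisense partners cannot be told apart.

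Genes were tested with edgeR 4.0.16 (quasi-likelihood, filterByExpr, TMM, Benjamini-Hochberg over all genes tested, threshold 0.05) on the 7 H libraries alone, and likewise on M. Each SE restates the test, being the size of the log2 fold change over the root of its F. CPM is scaled by TMM. Depth was 10064013 to 14091791 counts per H library, and floors of 3 counts cover counting error only. Alternatives were DESeq2 1.42.0 (missing adjusted p kept missing), limma 3.58.1, other scaling and filters, single libraries left out, yolk and oocyte genes removed or used as covariates. Shares were compared by exact permutation (SciPy 1.17.1, 35 assignments). The fits were run on simulated counts with known changes, drawn from a mean profile, so no simulated library differed in egg or yolk content. That run checked the code and cannot show how the fits behave on libraries like these. Gene names came from a supplied table (29201 of 32520 identifiers). Of 993 list names, 940 matched.

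The members, the 37 gene lists and the tests were chosen with earlier results of these data known. Named genes are the 12 highest and 12 lowest called fold changes with a mean of at least 5 CPM and a symbol that is not clone-type, or, where fewer than 6 passed, the 6 smallest p. Genes called in both H and M, up to 4 called members of each list or its 2 smallest p, and each vitellogenin and egg coat gene could also be named. Called genes without a proper symbol, and genes called without wild-type replicates 6 and 7, buc, DDX4, gsdf, FSHR, CYP19A1, CYP17A1, CYP11A1, INHBA, ASIP, MC3R and agrp were named after their values were seen. The same holds for cldnd, cldng, WT1 and STAR.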

Additional observations from a re-analysis of the deposited data

Results flagged for a closer look

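Values examined were list means and named genes, as log2 CPM with a prior count of 2. Of 166, 18 had 1 of the 4 wild-type H libraries far from the other 3. Chance flags about 1 in 20 of independent values chosen without regard to the libraries. These values were not such: lists and their members were both counted. Also, hnrnpa0a and plxnb2a.3 were named through the fit without wild-type replicates 6 and 7. The number flagged was therefore not compared with that rate. The outlying library was replicate 6 for 8, replicate 8 for 7, replicate 7 for 3 and replicate 5 for 0. The vitellogenin mean was 11.006 in replicate 8 and at most 0.19 in the others, and the vitellogenin genes stood out there too, at 11.7 for vtg6, 12.3 for vtg4, 12.2 for vtg5 and 11.3 for vtg7. Replicate 6 was the lowest for the means of goblet cell genes (2.47), smooth muscle genes (2.67), interferon response genes (1.39), adherens junction and desmosome genes (4.63) and agouti and melanocortin pathway genes (2.997). It was also the lowest for the vesicle gene sytl2b (2.09) and the smooth muscle gene LMOD1 (ENSDARG00000077261) (1.23), and the highest for cry5 (5.28). Replicate 7 was the highest for the gut peptide gene vipb (7.51), for hnrnpa0a (4.64) and for plxnb2a.3 (5.06). Replicate 8 was the lowest for FN1 (ENSDARG00000019815) (2.99) and, through a single count, the highest for zgc:174862 (-2.05). In H the interaction test against M called 0 genes, so no difference between H and M is listed.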

How the results depend on the processing

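No paired analysis was possible because the replicate numbers of the groups compared (13, 14 and 16 against 5 to 8, and 9 to 11 against 1 to 4) share none. Genes called in H numbered 11, against 678 with DESeq2, 620 with limma-voom, 214 in the fit of 14 libraries, 79 without wild-type replicates 6 and 7, and 0 with the vitellogenin mean or with both means as covariates. Leaving out 1 library at a time gave 0 (without transgenic 13, transgenic 16 or wild-type 7) to 48 (without wild-type 6), with 4 without transgenic 14, 2 without wild-type 5 and 3 without wild-type 8. RLE scaling, no filter, the removal of yolk and oocyte genes, the egg covariate and the removal of the 500-gene set (added after seeing the data) gave 8 to 13. Calls in M numbered 742, against 1695 with DESeq2, 178 in the fit of 14 and 327 to 807 with 1 library left out, 327 without transgenic M replicate 9, 348 without transgenic M replicate 10, 451 without transgenic M replicate 11 and 394 without wild-type M replicate 4. The overlap of H and M calls fell from 6 to 3 at an adjusted p under 0.01. The interaction remained at 0 calls without wild-type H replicates 6 and 7, with 1202 at an unadjusted p under 0.05.

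The vitellogenin share was 14.2 percentage points higher in transgenic libraries, 7.20 as a share of FPKM and 11.5 to 18.1 with 1 library left out. The egg coat and oocyte share was lower by a difference of -1.23 points, -1.71 as a share of FPKM and -1.64 to -0.287 with 1 library left out, the smallest without wild-type replicate 6.

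Of 2331 alternative values of 127 named genes, 39 changed sign, in genes that were not called. With both covariates these were mmp13a (0.71), MMP9 (0.25), MVK (0.19), cldn7b (1.29), epcam (0.80), nectin3b (0.21), RRM2 (ENSDARG00000020711) (2.90), aurka (1.28), RPL7L1 (0.39), zp2l2 (1.31), zp3f.1 (1.37), zp3d.1 (0.36), zp3f.2 (0.24), zp2l1 (0.10), zpcx (0.46), zp3d.2 (0.14), zp3c (0.53) and zp3.2 (0.42). With the egg covariate, of which the egg coat genes are themselves part, they were aurka (0.85), RPL7L1 (0.0359), zp2l2 (1.53), zp3f.1 (1.05), zp3b (0.41), zp3d.1 (0.25), zp3a.1 (0.36), zp3f.2 (0.0705), zp2l1 (0.54), zpcx (0.97), zp3d.2 (0.50), zp3c (0.83), zp2.2 (0.53) and zp3.2 (0.73). They were RRM2 (0.55) and vtg4 (-0.15) with the vitellogenin covariate, and RRM2 (0.0360), vtg6 (1.54) and vtg7 (2.32) with limma-voom. With 1 library left out vtg6 ranged from -2.21 (without transgenic 14) to 13.5 and vtg7 from -0.94 to 10.99, both highest without wild-type 8. The cause was not tested. With 3 libraries against 4 and this spread, a difference that was not called may still exist.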
